A study of Mus musculus with 15 samples.

Results

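Ion channel genes gave 95 accessible regions at 56 genes in mouse islets, out of 13858 regions at 10268 genes once overlapping peaks of the study's 4 peak tables were merged. A peak was counted when the authors' annotation named its gene with a symbol that starts with Kcn (K channels), Cacn (Ca channels), Scn and a digit (Na channels), Trpm or Trpc (TRP channels), Clcn (the CLC family of chloride channels and chloride-proton exchangers), Ryr or Itpr and a digit (Ca release channels of the endoplasmic reticulum). By region, 33 belonged to voltage-gated K channels and their accessory subunits, 10 to Ca-activated K channels, 6 to inward rectifier K channels, 6 to tandem-pore K channels, 5 to pore subunits of Ca channels, 8 to auxiliary subunits of Ca channels, 9 to Na channels, 6 to TRP channels, 7 to the CLC family and 5 to Ca release channels. The rule reads gene names only, and the Ca-activated class includes Kcnt2, the gene of a K channel activated by Na.

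The data are ATAC-seq, which cuts and tags open chromatin with the Tn5 transposase, on islets of male mice aged 3 months. Every mouse carried Arid1aFl/Fl, the floxed gene of a DNA-binding subunit of the BAF chromatin remodeller, and MIP-rtTA, a doxycycline-dependent activator driven by an insulin promoter. The Arid1a βKO mice also carried TRE-Cre, so Cre is expected in β cells that held doxycycline, and other islet cells are expected to keep Arid1a. Islets were taken from 4 control and 3 βKO mice before partial pancreatectomy (PPx, removal of part of the pancreas) and from 4 control and 4 βKO mice 6 days after it. Doxycycline was given in the drinking water and withdrawn before PPx, and the labels state no genotype that went without it. The libraries are of whole islets, so fewer cells of a type and less accessibility per cell cannot be told apart.

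In a β cell, glucose metabolism closes ATP-sensitive K channels, the membrane depolarises, voltage-gated Ca channels and Na channels carry inward current, and Ca entry triggers release of insulin granules. Voltage-gated and Ca-activated K channels repolarise the cell, tandem-pore K channels carry a background K current, and TRP and chloride conductances add depolarising current. Ryanodine and inositol trisphosphate receptors release Ca from the endoplasmic reticulum, while several CLC proteins work as chloride-proton exchangers in endosomes and granules.

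A promoter was the site of every channel peak called higher in βKO than in control islets after PPx. Shown here are the RefSeq promoter windows (GRCm38.p6, 250 bases before to 50 after the annotated start, 5′ to 3′ on the gene's minus strand) of the 5 called genes with a window under the peak, with CG dinucleotides in capitals. Scn9a is added as the least changed of the channel promoters at least as strong as the weakest called one. The windows lie at chr17:87797945-87798244 (Kcnk12), chr4:148038764-148039063 (Clcn6), chr8:60954750-60955049 (Clcn3), chr9:95750299-95750598 (Trpc1), chrX:7319309-7319608 (Clcn5) and chr2:66634913-66635212 (Scn9a).
Kcnk12: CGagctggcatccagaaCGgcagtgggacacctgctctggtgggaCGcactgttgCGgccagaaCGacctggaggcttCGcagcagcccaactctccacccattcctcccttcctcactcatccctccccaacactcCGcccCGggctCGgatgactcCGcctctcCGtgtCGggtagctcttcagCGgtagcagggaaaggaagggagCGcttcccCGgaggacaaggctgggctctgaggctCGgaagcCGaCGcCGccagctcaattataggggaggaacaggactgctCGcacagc
Clcn6: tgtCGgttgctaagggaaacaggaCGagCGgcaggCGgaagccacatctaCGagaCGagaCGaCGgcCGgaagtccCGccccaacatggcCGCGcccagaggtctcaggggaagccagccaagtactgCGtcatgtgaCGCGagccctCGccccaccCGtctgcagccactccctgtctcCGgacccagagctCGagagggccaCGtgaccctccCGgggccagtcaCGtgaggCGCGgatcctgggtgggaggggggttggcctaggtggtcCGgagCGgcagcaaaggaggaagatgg
Clcn3: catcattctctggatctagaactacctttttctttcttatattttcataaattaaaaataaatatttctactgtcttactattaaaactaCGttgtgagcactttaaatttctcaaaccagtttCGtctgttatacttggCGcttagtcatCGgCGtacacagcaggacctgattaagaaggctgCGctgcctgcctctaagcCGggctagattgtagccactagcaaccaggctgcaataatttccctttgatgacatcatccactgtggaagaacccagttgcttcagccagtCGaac
Trpc1: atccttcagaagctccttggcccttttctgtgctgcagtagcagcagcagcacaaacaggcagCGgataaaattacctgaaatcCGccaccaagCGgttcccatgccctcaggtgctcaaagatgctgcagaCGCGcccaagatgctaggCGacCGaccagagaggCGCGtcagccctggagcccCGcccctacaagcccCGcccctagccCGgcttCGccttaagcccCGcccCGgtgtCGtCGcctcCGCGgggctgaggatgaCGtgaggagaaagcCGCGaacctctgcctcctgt
Clcn5: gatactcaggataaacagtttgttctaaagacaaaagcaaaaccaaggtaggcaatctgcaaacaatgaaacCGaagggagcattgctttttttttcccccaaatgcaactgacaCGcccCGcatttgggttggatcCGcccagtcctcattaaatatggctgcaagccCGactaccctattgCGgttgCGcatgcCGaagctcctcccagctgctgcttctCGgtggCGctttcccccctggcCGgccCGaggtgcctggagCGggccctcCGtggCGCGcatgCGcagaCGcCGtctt
Scn9a: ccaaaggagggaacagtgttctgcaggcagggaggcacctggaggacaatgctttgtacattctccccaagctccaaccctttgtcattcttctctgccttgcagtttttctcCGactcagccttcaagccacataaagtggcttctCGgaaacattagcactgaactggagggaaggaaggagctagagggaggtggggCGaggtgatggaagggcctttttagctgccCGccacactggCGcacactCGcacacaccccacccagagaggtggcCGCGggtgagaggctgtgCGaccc
The called windows held 20 CG in Kcnk12, 26 in Clcn6, 22 in Trpc1, 19 in Clcn5 and 8 in Clcn3, and the uncalled Scn9a window held 9. The median over all 5026 windows under promoter peaks was 23, so 1 of the 5 called windows (Clcn6) lay above it and 4 lay below. The GC box GGGCGG, searched on both strands, was in 4 of the 5 called windows (Kcnk12, Clcn6, Trpc1 and Clcn5) and in 72.0% of the 5026 windows under promoter peaks. CCAAT was in 0 of the 5 called windows against 44.6% of the 5026. The NRF1 motif was in the Clcn5 window and in 2.41% of the 5026. TGACGTCA, CAGATG and AGGTCA were in none of the 5 called windows, against 3.80%, 9.67% and 10.6%. A match describes the letters only, and counts are of whole windows. The peak covered all 300 bases in Kcnk12, Clcn6 and Trpc1, 297 in Clcn5, 247 in Clcn3 and 189 in Scn9a.

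The targeted gene marked the genotypes. An Arid1a peak in exon 9 (mm10 chr4:133692981-133693581) had a mean log2 concentration of 1.21 in control and 5.49 in βKO islets before PPx with a peak call in 0 of 4 libraries of control and in 3 of 3 of βKO. After PPx it stood at 0.40 in control and at 4.04 in βKO islets, with calls in 0 of 4 and 3 of 4 libraries. Over time in βKO islets this peak went from 5.26 to 4.04 (change -1.22, FDR 0.0584), while 97.1% of all peaks had positive changes. A concentration is the authors' log2 of normalised reads in a peak, averaged over a group, and without values per library the error of a change can be had only from its deposited p-value. Depth per library is unknown. Among 14 β cell marker genes, 8 had peaks in the table of genotypes after PPx (Ins1, Nkx6-1, Mafa, Ucn3 and others), while 1 of 12 acinar, 1 of 6 duct and 2 of 5 leukocyte genes did. Between βKO and control islets after PPx, the median log2 change was 0.66 at 15 β cell peaks and 0.40 at 4 α cell peaks. It was 0.47 at 2 stromal peaks, -0.02 at 6 endothelial peaks and 0.68 at 2 leukocyte peaks. A list of 6 genes for δ and PP cells also took in the ghrelin genes Ghrl and Mboat4. On it 2 genes had a peak, Sst and Mboat4, with a median change of 1.07. Both of those peaks were called higher. The distal Sst peak read 4.20 in control and 5.32 in βKO (FDR 0.0294). The peak of Mboat4, a ghrelin-processing gene, read 3.21 and 4.23 (FDR 0.0491). Of the 15 β cell peaks, 2 (13.3%) were called higher, at Ins1 and Nkx6-1. Among all 13111 peaks of this comparison, 9.88% were called higher and the median change was 0.61, near the β cell values. The part of these markers in the channel results was not tested. Snap25, a neuronal and endocrine gene, was the only one of 6 neural and glial markers with peaks.

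After PPx, the promoters of 6 channel genes were more open in βKO than in control islets, and no channel peak was called lower by the authors' test. Of these, 3 encode CLC family members (Clcn3, Clcn5 and Clcn6), and the others encode the tandem-pore K channel subunit Kcnk12, the TRP channel Trpc1 and the inositol trisphosphate receptor Itpr1. The rises lay between 1.84-fold and 2.38-fold. With a Benjamini-Hochberg adjustment of the authors' p-values over all listed peaks, 3 of the 6 calls ended (Itpr1, adjusted p 0.0630, Trpc1, 0.0653, and Clcn5, 0.0548), and none of the 6 passed an approximate test, added after seeing the data, relative to the table's median change (adjusted p 0.996 for each). Of 90 channel peaks at 55 genes, these 6 (6.67%) were called at a deposited FDR under 0.05, against a background of 9.88% of 13111 peaks called higher and 0.0839% called lower. At promoters, 6 of 37 channel peaks were called (16.2%) against 14.3% of all 8050 promoter peaks. Outside promoters, 0 of 53 channel peaks were called by the authors' test, against 2.81% of all 5061 such peaks called higher. At an unadjusted p under 0.05 there, 4 channel peaks were higher and 2 lower, against 695 higher and 62 lower of the 5061. The called shares lie near those of other peaks of the same class. Over all 90 channel peaks, 14 higher and 2 lower had an unadjusted p under 0.05, against 4331 higher and 69 lower of all 13111 peaks.

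**Figure D1:**
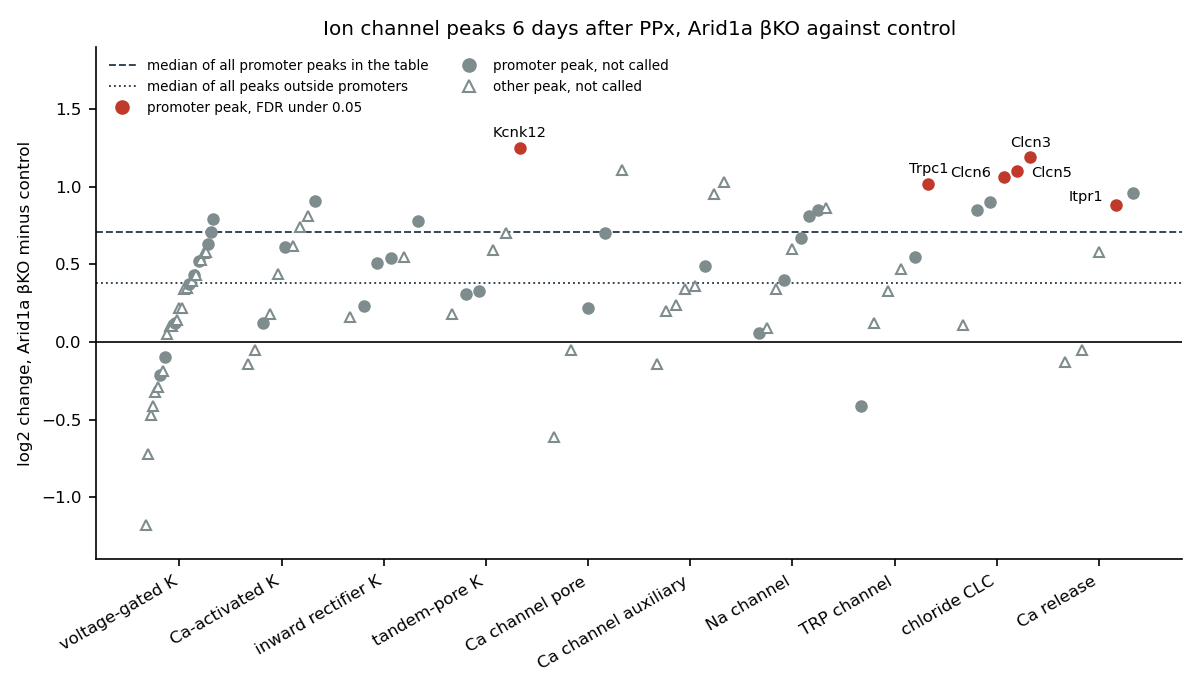
Each symbol is 1 of 90 channel peaks, with the log2 change between βKO and control islets 6 days after PPx on the vertical axis and the channel class on the horizontal axis. The 6 called promoters (red) lie between 0.88 and 1.25, above the median of all promoter peaks (0.71, dashed), and many voltage-gated K channel peaks lie under the median of peaks outside promoters (0.38, dotted).

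The CLC family stood highest among the channel classes. CLC-3, the product of Clcn3, is a chloride-proton exchanger of endosomes and granules. In the authors' deposited table its promoter (mm10 chr8:60954396-60954996) had a level of 4.40 in control islets after PPx and 5.59 in βKO, a log2 change of 1.19 with a standard error of 0.35 implied by the p-value (FDR 0.0268). Peak calls came from 3 of 4 libraries of control and 4 of 4 of βKO. Clcn6, a late endosomal member, read 4.84 and 5.90 (change 1.06, implied standard error 0.29, FDR 0.0248) and had the lowest FDR of all channel peaks. The Clcn5 promoter, at the gene of an endosomal exchanger, read 3.68 and 4.78 (change 1.10, implied standard error 0.37, FDR 0.0396). A second Clcn5 promoter peak, at another annotated start, was weaker at 2.55 and 3.45 and was not called (change 0.90, FDR 1). Clcn2, a chloride channel of the plasma membrane, read 4.23 and 5.08 and lay just outside the threshold (change 0.85, FDR 0.0532). The distal Clcn4 peak was level between the genotypes (3.03 and 3.14). The median change of the 6 CLC peaks was 0.98. Set against other peaks in the same of 10 bins of concentration and the same annotation class, 5 of 6 lay above, with a median excess of 0.28.

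The authors named a Clcn4 promoter peak (mm10 chr7:7298278) in the table of control times only. In the other tables the overlapping peak was named Mir5620, a microRNA gene, and so was not counted. There its levels after PPx were 5.53 in control and 6.34 in βKO (change 0.81, FDR 0.0783). Before PPx they were 5.43 in control and 6.11 in βKO (change 0.68). Over time in βKO islets the peak went from 5.89 to 6.36 (change 0.47, FDR 0.308), against a median change of 0.83 for all peaks.

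Among tandem-pore K channels, Kcnk12 had the largest change of the 6 channel peaks called between genotypes after PPx. Its promoter (mm10 chr17:87797853-87798453) went from 3.61 in control to 4.86 in βKO after PPx (change 1.25, implied standard error 0.36, FDR 0.0267), with calls in 1 of 4 libraries of control and 4 of 4 of βKO. A second Kcnk12 peak in an exon region read 3.49 and 3.67 (change 0.18). Kcnk16, which encodes the TALK-1 channel of β cells, had a weak distal peak at 2.53 and 3.12. The promoters of Kcnk10 (3.23 and 3.54) and Kcnk13 (3.79 and 4.12) and an intron peak of Kcnk9 (2.81 and 3.51) were also higher in βKO by level but were not called. All 6 peaks of the class had positive changes, with a median of 0.46. Of all 13111 peaks, 90.3% had positive changes, with a median of 0.61.

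Trpc1, a subunit of cation channels linked to receptor signalling and store depletion, had levels of 4.31 in control and 5.33 in βKO after PPx (mm10 chr9:95750039-95750639, change 1.02, implied standard error 0.37, FDR 0.0469). The promoter of Trpm7, a channel fused to a kinase, read 3.79 and 4.35 (change 0.55, FDR 0.196). Trpm8, the cold and menthol receptor, was the TRP peak that went the other way, at 4.23 and 3.83 (change -0.41, FDR 0.346), with calls in 3 of 4 libraries of control and 0 of 4 of βKO. Trpm3, a heat- and steroid-gated channel of β cells, had distal peaks at 3.79 and 4.11 and at 2.70 and 3.18. The authors' tables listed no peak at Trpm2, Trpm4 or Trpm5.

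Of the Ca release channels, Itpr1 was called. Its promoter (mm10 chr6:108212741-108213341) had 4.81 in control and 5.69 in βKO (change 0.88, implied standard error 0.32, FDR 0.0451) and was called in every library of both groups. The Itpr1 peak in intron 40 read 3.47 and 4.05 (change 0.58, FDR 0.269). Ryr2, the ryanodine receptor found in β cells, had a promoter peak at 2.30 and 3.25 (change 0.96, p 0.0705, FDR 1) and an intron 7 peak at 4.24 and 4.19. The Ryr3 peak in intron 3 read 3.53 and 3.41. The Ryr2 promoter and intron had unlike changes, and neither was called. Itpr2 and Itpr3 had no listed peak.

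Voltage-gated K channels were the largest class and shared the lowest median change with the Ca channel pore subunits. None of its 29 peaks at 17 genes was called by the authors' test after PPx, 0 having an unadjusted p under 0.05 with a higher and 2 with a lower level. Their median change was 0.22, against 0.61 for all peaks of the table, and 9 of the 29 had lower levels in βKO. Only 9 of the 29 (31.0%) were promoters, against 61.4% of all peaks. Against peaks of like concentration and class, 7 lay above and 22 below, with a median excess of -0.26.

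Kcnb2, a delayed rectifier, showed the range within 1 gene. Its promoter was the strongest peak of the class, at 5.28 in control and 5.81 in βKO (change 0.52, FDR 0.228), and it was called in all libraries of both groups. An intron 2 peak read 4.34 and 4.69, and another intron 2 peak read 4.17 and 3.69 (change -0.47, FDR 0.369). Kcnc2, a fast delayed rectifier, had a promoter at 3.53 and 4.32 (change 0.79, FDR 0.119), an intron 2 peak at 4.72 and 5.25, and distal peaks at 4.13 and 4.23 and at 3.25 and 2.84. Kcnip4, an accessory subunit of A-type K channels, had 5 peaks in this table: its strongest, in intron 1, read 5.29 and 5.43, and its changes lay between -0.10 and 0.39. Kcnd2, an A-type pore subunit, read 2.57 and 3.28 at its promoter and 3.36 and 3.58 in intron 1. For Kcnb2, Kcnc2 and Kcnd2 the promoter had a larger change than the mean of the gene's other peaks.

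The lowest values of the class lay outside promoters. Kcna10 in intron 1 had 3.50 in control and 2.32 in βKO (change -1.18, p 0.0256, FDR 1). The distal Kcnh5 peak (mm10 chr12:74804146-74804746, an ether-a-go-go channel gene) read 4.51 and 3.79 (change -0.72, implied standard error 0.34, p 0.0349, FDR 0.0935). It was called in all 4 libraries of both groups. In an approximate normal test of each change against the table's median, chosen after seeing the data, Kcnh5 was the only channel peak to pass (adjusted p 0.0333), against 0.374% of peaks passing on the low side. The distal Kcnh8 peak read 3.36 and 3.05, the Kcnh7 intron 7 peak 3.53 and 3.24, and the Kcnf1 distal peak 3.71 and 3.52, all with FDR 0.699 or more. Kcnab1, a β subunit, read 3.99 and 3.78 at its promoter (change -0.21). Kcnh5, Kcnd2, Kcnf1, Scn3b, Kcnk9, Kcnj9 and Cacna1b fall outside the naming rule and were singled out after their values were seen. Kcnq5 in intron 1 was at the floor of the table at 0.83 and 0.87.

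The class of Ca-activated K channels, which here includes Kcnt2, had 10 peaks and no call, with a median change of 0.53 and a median excess of -0.05. The strongest was a Kcnn2 promoter, at the gene of the SK2 channel, which had 4.05 in control and 4.95 in βKO (change 0.91, FDR 0.0706), while its other promoter read 4.13 and 4.74 (change 0.61, FDR 0.160). Kcnma1, the gene of the BK channel, had an intron 1 peak at 2.91 and 3.08 and a distal peak at 3.49 and 3.43. Its auxiliary subunit gene Kcnmb2 had intron 1 peaks at 2.68 and 3.43 and at 2.69 and 3.32. The distal peaks of Kcnt2, whose channel is activated by Na rather than Ca, read 3.72 and 4.16, and 4.12 and 3.98. Kcnn3 read 3.27 and 3.39 at its promoter.

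Inward rectifiers had 6 peaks, all higher in βKO by level and none called (median change 0.53), while 90.3% of all peaks were higher (median change 0.61). No peak was listed at Kcnj11, the pore of the β cell ATP-sensitive K channel, while its sulfonylurea receptor partner Abcc8 had peaks in an exon and an intron. The authors' table of times in βKO islets gave the Abcc8 exon peak 4.55 before and 5.36 after PPx (change 0.81, FDR 0.0999), and the table of times in control islets gave it 4.54 and 4.74. Kcnj6, a G protein-gated rectifier expressed in β cells, read 3.22 and 3.74 at its promoter, 3.81 and 3.98 in intron 3 and 3.47 and 4.02 at a distal site between the genotypes after PPx. Kcnj1 read 4.30 and 4.53 and Kcnj2 3.38 and 3.92 at promoters. The Kcnj9 promoter read 3.02 and 3.80.

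Ca channel genes had few and weak peaks. Cacna1c, the main L-type pore gene of mouse β cells, and Cacna1h and Cacnb3 had none. Cacna1d, the other L-type gene, had intron 8 peaks that read 3.78 and 3.73 and 3.10 and 2.49 (change -0.61, p 0.300). The P/Q-type gene Cacna1a read 2.90 and 3.13 at a promoter, the N-type gene Cacna1b 3.25 and 3.95, and the R-type gene Cacna1e 2.11 and 3.22 at a distal site (change 1.11, p 0.0443, FDR 1). The 5 pore peaks had a median change of 0.22 and a median excess of -0.38. Among auxiliary subunits, Cacnb2 had 4 intron peaks, of which the one furthest along intron 2 read 2.99 and 3.94 (change 0.95, FDR 0.0839) and the strongest, in intron 1, read 4.29 and 4.52. Cacna2d1 read 3.93 and 4.43 at its promoter (change 0.49) and between 2.29 and 4.02 at intron peaks, where the intron 12 peak had a change of 1.03 (p 0.0411, FDR 1).

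All 9 Na channel peaks were higher in βKO by level, as were 90.3% of all peaks, with a median change of 0.60 and no call. An unadjusted p under 0.05 with a higher level was found at 3 of the 9, against 4331 of all 13111 peaks. Scn9a and Scn3a, the main pore genes of mouse islet cells, differed at their promoters: Scn9a read 4.93 and 4.99 (change 0.06, FDR 0.882) while Scn3a read 2.98 and 3.65 (change 0.67). The auxiliary subunit gene Scn3b read 4.22 and 5.06 at its promoter (change 0.85, FDR 0.0604). Scn2a had a promoter at 3.77 and 4.58 (change 0.81, FDR 0.0935) and a weaker one at 3.05 and 3.46. Scn8a had no listed peak. The peaks of Scn2a, Scn3a and Scn9a lie within 1 cluster of Na channel genes on chromosome 2.

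Before PPx, no channel peak was called between the genotypes. The authors' test called 0 of 46 channel peaks at 32 genes, against a background of 0.0128%, which is the Arid1a peak alone. At an unadjusted p under 0.05, 0 channel peaks were higher and 3 lower, against 66 higher and 180 lower of all 7826 peaks. The median change was -0.05, against 0.00 for all 7826 peaks. The 3 lower peaks lay outside promoters. Kcnh7 in intron 7, an erg-type K channel gene, had 3.37 in control and 1.62 in βKO (change -1.75, p 0.0097), with calls in 2 of 4 and 0 of 3 libraries. Kcnj6 in intron 3 read 4.04 and 2.99 (change -1.06, p 0.0403), and the distal Kcnc2 peak read 4.48 and 3.62 (change -0.86, p 0.0329). All 3 had a deposited FDR of 1. Over the 25 channel peaks outside promoters the median change was -0.19, against -0.12 for all such peaks, and over the 21 promoters it was 0.01, against 0.04.

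The genes called after PPx did not share a direction before it. Kcnk12 (3.96 in control and 4.42 in βKO), Clcn5 (3.51 and 4.05) and Trpc1 (4.27 and 4.64) were higher in βKO by level, with changes of 0.45, 0.54 and 0.37. Clcn3 (4.32 and 4.23) and Clcn6 (5.05 and 4.84) were slightly lower, and Itpr1 (5.02 and 5.07) was level. None had a p under 0.05 before PPx.

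**Figure D2:**
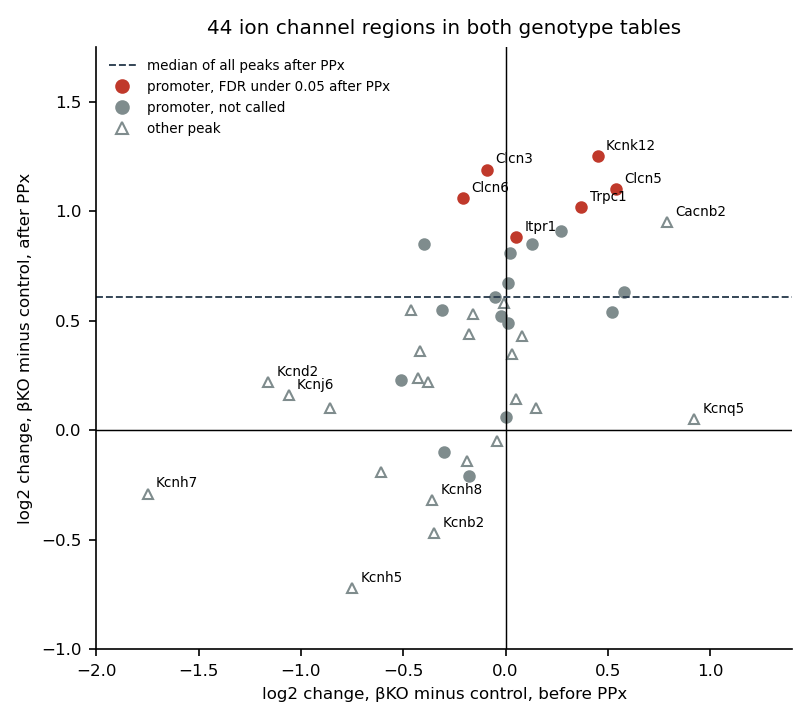
Each symbol is 1 of the 44 channel regions in both genotype tables, with the log2 change between βKO and control islets before PPx on the horizontal axis and after PPx on the vertical axis. All 9 regions below 0 after PPx were also below 0 before it, and the called promoters lie on both sides of 0 before PPx.

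At the 44 channel regions listed in both genotype tables, which share no library, the changes before and after PPx had a Pearson correlation of 0.51 and a Spearman correlation of 0.51. At all 7504 matched peaks the values were 0.29 and 0.27. Peaks of 1 gene, the annotation class and the peak's strength are shared by these points, so the correlation is a description only. Of the 44 regions, 26 were below 0 before PPx and 9 after it. Those 9 were all below 0 at both times, as were 398 of the 502 matched peaks of any gene below 0 after PPx (79.3%): Kcnh7 intron 7, Kcnh5, Kcnb2 intron 2, Kcnh8, Kcnf1, Kcnab1, Kcnip4 at a promoter, a Kcnt2 distal peak and Ryr2 intron 7. Before PPx Kcnh5 had 4.55 in control and 3.80 in βKO (change -0.75, p 0.112), close to its values after PPx. At the Kcnh7 intron peak the change was -1.75 before and -0.29 after PPx. Of the 9 regions, 7 belong to voltage-gated K channels and their subunits, which make up 18 of the 44. Cacnb2 in intron 2 was higher at both times (0.79 and 0.95).

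More channel regions were listed after PPx. The table of genotypes after PPx held 46 regions that the table before PPx did not, and 2 were listed the other way round. Those 46 were 51.1% of its 90 channel regions, against 42.8% (5607) of all 13111 peaks without a match before PPx. Of the 90 peaks after PPx, 39 were called in at least 2 control libraries and 73 in at least 2 βKO libraries (43.3% and 81.1%, against 44.0% and 91.9% of all peaks). A listing depends on calls in the libraries, so an unlisted peak was not tested and is not shown to be closed.

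In βKO islets, 4 channel peaks rose from before to after PPx. They were the promoters of Clcn2, Clcn3 and Clcn6 and an intron 1 peak of Kcnip1, an accessory subunit that binds A-type K channels. These 4 of 80 channel peaks (5.00%) compare with 7.44% of all 12767 peaks called higher and with 6.23% of peaks of like concentration and class. Clcn3 went from 4.25 to 5.66 (change 1.41, implied standard error 0.40, FDR 0.0282), Clcn6 from 4.59 to 5.85 (1.25, implied standard error 0.36, FDR 0.0316) and Clcn2 from 3.78 to 5.08 (1.30, implied standard error 0.43, FDR 0.0423). Clcn2 was called in 1 of 3 libraries before and 4 of 4 after PPx. Its call ended with the adjustment over all listed peaks (adjusted p 0.0503), and none of the 4 passed relative to the table's median change (adjusted p 1.00 for each). Kcnip1 (mm10 chr11:33744343-33744943) went from 2.50 to 4.30 (1.80, implied standard error 0.52, FDR 0.0303), with calls in 0 of 3 and 3 of 4 libraries.

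The Kcnip1 rise started from a low level in βKO islets before PPx. In the tables of times, control islets read 3.89 before and 4.01 after PPx at this peak, close to the level of βKO islets after PPx. Between the genotypes after PPx, Kcnip1 read 3.95 and 4.30 (change 0.34, FDR 0.398), and it was not listed in the genotype table before PPx. At Clcn3 and Clcn6 the levels of βKO islets were near control before PPx and above it afterwards. The βKO islets after PPx enter both of these comparisons, so the calls at Clcn3 and Clcn6 in both rest partly on the same 4 libraries.

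**Figure D3:**
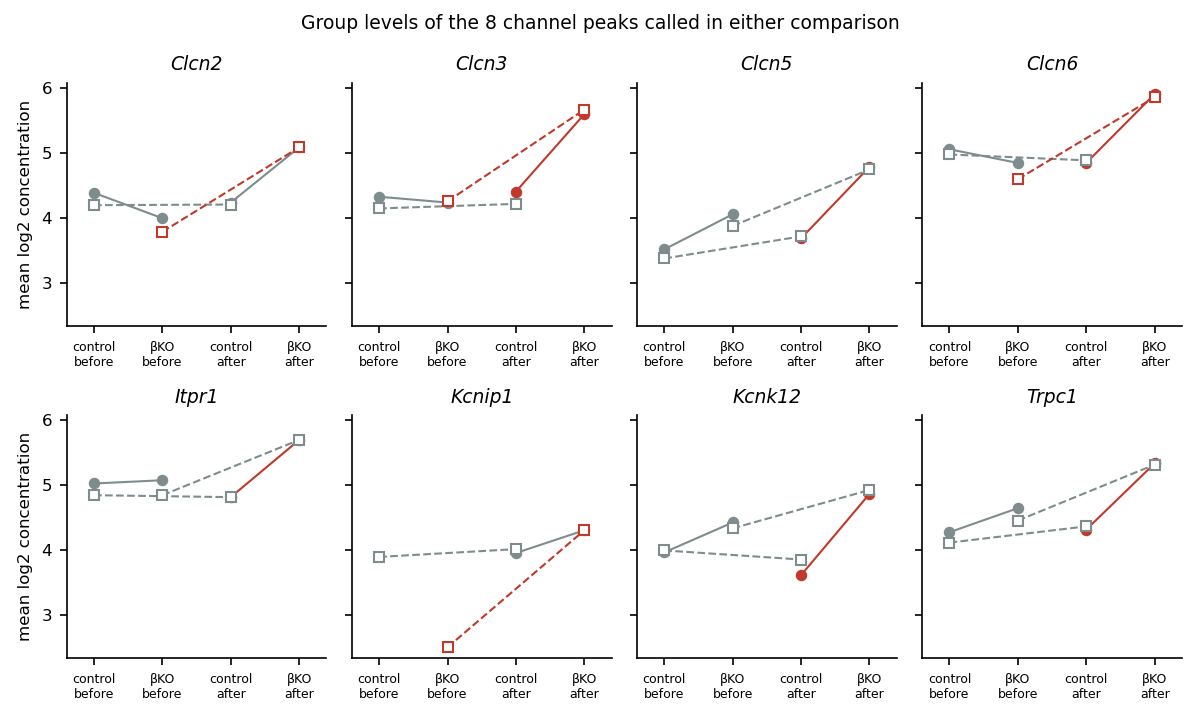
Mean log2 concentration of each group at the 8 channel peaks called in either comparison, with circles and solid lines from the genotype tables, squares and dashed lines from the tables of times, and red for a deposited FDR under 0.05. Clcn3 and Clcn6 are highest in βKO islets after PPx (5.59 and 5.90 in the genotype table), while Kcnip1 starts low in βKO islets before PPx and ends at 4.30.

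Elsewhere in the CLC family, levels in βKO islets were higher after PPx without a call. The distal Clcn4 peak went from 0.48 to 3.04 (change 2.56, p 0.0042, FDR 1) and the second Clcn5 promoter from 1.60 to 3.45 (1.85, p 0.0062, FDR 1). The deposited FDR was 1 at 20 of the 80 channel peaks in this table, among them these weak ones. The 6 CLC peaks had a median change of 1.36, against 0.83 for all peaks, and a median excess of 0.50 over peaks of like concentration and class. The Clcn4 promoter peak named Mir5620 (change 0.47) was not among them. Voltage-gated K channels again stood lowest, with a median change of 0.58 and a median excess of -0.25, and 6 of 25 lay above their like peaks and 19 below. Over all 80 channel peaks the median change was 0.79 and the median excess was -0.05. Of the promoters called between genotypes, Itpr1 (4.84 to 5.69, FDR 0.0788), Trpc1 (4.45 to 5.31, FDR 0.103), Clcn5 (3.87 to 4.74, FDR 0.136) and Kcnk12 (4.33 to 4.92, FDR 0.256) were not called over time. Kcnq5 in intron 1 had the lowest change, from 1.20 to -0.13 (p 0.269).

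In control islets, no channel peak was called between before and after PPx. The authors' test called 0 of 49 channel peaks at 37 genes and 0 of 8070 peaks in all (0%), with 0 channel peaks at an unadjusted p under 0.05 against 196 higher and 8 lower peaks in all. By level, 39 of the 49 were higher after PPx, as were 72.8% of all peaks. The median change of channel peaks was 0.19, against 0.16 for all peaks. Clcn3 read 4.14 before and 4.21 after PPx, Clcn6 4.97 and 4.88, Clcn2 4.19 and 4.20, and Itpr1 4.84 and 4.81, so these promoters stayed within 0.09 of their starting level. The largest change was at the distal Clcn4 peak, from 2.09 to 3.13 (p 0.0767).

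The difference between genotypes in their change over time was tested approximately, from the fold and p-value of 2 tables that share no library. Of 42 channel regions in both tables, 0 passed, as did 0% of all 7533 matched peaks, for which the smallest adjusted p was 0.161. At an unadjusted p under 0.05, 1017 of all matched peaks were higher and 5 lower in βKO, and 4 channel regions were higher. Those were Clcn6 (difference 1.33, standard error 0.48, p 0.0059), Kcnip1 (1.69, p 0.0080), Clcn3 (1.34, p 0.0125) and Clcn2 (1.29, p 0.0211), with adjusted p of 0.333, 0.338, 0.341 and 0.342 by Benjamini-Hochberg over the normal test. The difference was positive at 38 of the 42 channel regions and at 92.8% of all matched peaks, with medians of 0.64 and 0.65. A larger change in βKO than in control islets was thus not shown for any single channel region.

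**Figure D4:**
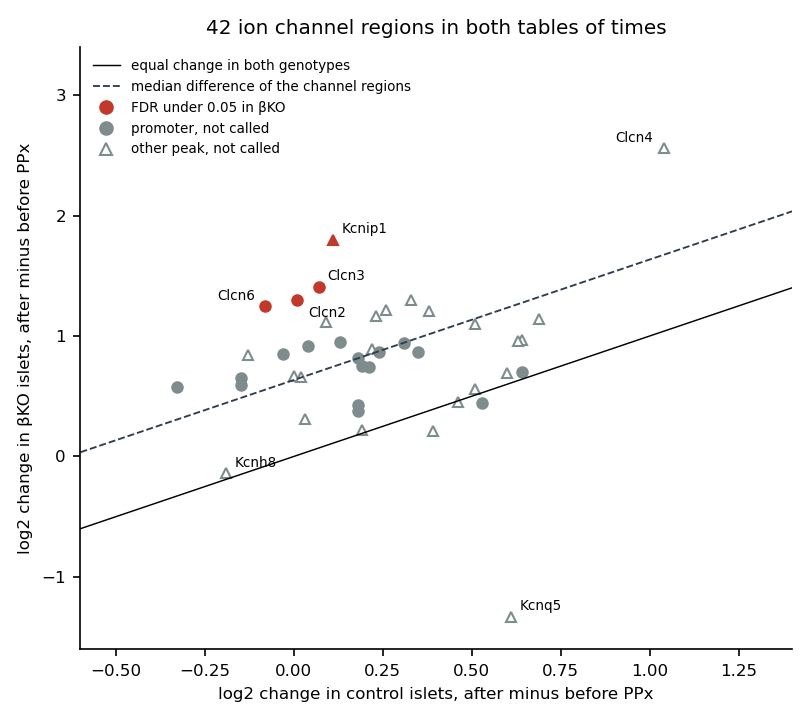
Each symbol is 1 of 42 channel regions, with the log2 change from before to after PPx in control islets on the horizontal axis and in βKO islets on the vertical axis. Clcn2, Clcn3, Clcn6 and Kcnip1 (red) had changes of 1.25 or more in βKO and within 0.11 of 0 in control islets, and most regions lie above the line of equal change (solid).

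Within single genes, the change between genotypes after PPx was mostly larger at promoters than at other peaks. Of 13 channel genes with both kinds of peak, 11 had the larger change at the promoter, with a median difference of 0.30. It was widest at Kcnk12 (1.25 at the promoter and 0.18 outside it), Ryr2 (0.96 and -0.05) and Kcnh7 (0.63 and -0.29). Scn9a (0.06 and 0.34) and Kcnip4 (0.01 and 0.25) went the other way. The same contrast was seen in 4 of 6 genes before PPx, in 5 of 12 for the change over time in βKO and in 0 of 4 in control islets. Over all peaks of the genotype table after PPx, the median change was 0.71 at promoters and 0.38 elsewhere, and for channel peaks it was 0.61 and 0.22.

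Channel genes are long, and more of their peaks lay away from promoters. The median length of the 55 genes in the table of genotypes after PPx was 159 kb by RefSeq, against 24.7 kb for the other genes with a length. Promoters made up 41.1% of channel peaks and 61.4% of all peaks. Kcnip4, with 7 regions along 1136 kb, had the longest gene. The promoters also held fewer CG: the median was 18 in the 22 channel windows matched by symbol and 23 in all 5026. In 4 bins of CG count, from fewest to most, the share of all promoter peaks called higher was 10.3%, 16.0%, 16.8% and 20.5%, with median changes of 0.67, 0.73, 0.73 and 0.77. Of the channel windows, 9 fell in the first bin, 8 in the second, 3 in the third and 2 in the last, with 1, 3, 1 and 0 called. With channel peaks set against others of like concentration and class, the median excess was -0.11 after PPx, with 36 of 90 above and 53 below.

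Genes that work beside the channels were described from 3 lists. Of 34 genes for channel partners and leak or store-operated channels, 17 had peaks in the table of genotypes after PPx, and 2 of their 27 peaks were called higher: Stim1, the Ca sensor of the endoplasmic reticulum (4.63 in control and 5.47 in βKO, FDR 0.0480), and Unc79, a subunit of the Na leak channel complex (2.95 and 4.15, FDR 0.0389). Of 30 Ca handling genes, 19 had 38 peaks and 4 were called higher, namely Saraf, an inhibitor of store-operated entry (4.10 and 5.03), Tmco1, a Ca leak protein (3.28 and 4.72), the Na-Ca exchanger Slc8a1 at a distal site (3.76 and 4.88) and the kinase Camk2g (3.20 and 4.39). Of 34 granule exocytosis genes, 20 had 35 peaks and 2 were called higher, Rapgef4, the cAMP sensor Epac2 (3.27 and 4.58), and the priming factor Unc13b (3.35 and 4.36). The called shares were 7.41%, 10.5% and 5.71%, near the 9.88% of all peaks. The medians of the lists were 0.41, 0.50 and 0.60, against 0.38 for the channel peaks and 0.61 for all peaks.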

How the data were processed

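ATAC-seq libraries from islets of 15 mice were summarised by the authors in 4 tables, 1 per pair of groups. Trimming and mapping tools (cutadapt and BWA), the peak caller MACS, DiffBind and ChIPseeker are listed in the submitters' processing notes, with mm10 (GRCm38) as the build. Their versions and settings, the normalization and any Tn5 shift of reads were not given in the sources used here. Every peak is 601 bp wide, and the columns of the deposited tables, per the file headers, hold the log2 concentration of each group, a log2 fold, a p-value and an FDR, and the number of libraries in which it was called. These deposited values carry no depth and no value per library. The fold's sign was turned so that positive means higher in βKO or after PPx.

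Identical rows of a position entered once, and 1 row without values was left out. Calls are the authors' FDR under 0.05. At weak peaks the deposited FDR is often 1 (41 of 90 channel peaks in the genotype table after PPx), whatever the p-value. Peaks that shared 1 bp were merged into regions. The excess of a peak is its change minus the median change of other peaks in the same of 10 bins of concentration and the same class (promoter, intron, exon, distal intergenic or other). Standard errors were implied from the log2 fold and p-value, and where p was 0.5 or more or the change was under 0.1 they were the median of peaks of like concentration. The interaction and the test against the table's median are normal approximations with Benjamini-Hochberg adjustment over all peaks. Both were run on simulated data with planted differences larger than any at channel regions, so that check does not cover differences of their size. The simulated interaction also held no shift shared by all peaks. Levels from different tables are not on 1 scale: at 43 channel regions, βKO islets before PPx read a median of 0.23 higher in the genotype table than in the table of times, and control islets before PPx 0.18 higher at 39. Named genes were those called, those furthest above or below their like peaks in each class, those with 3 or more peaks in a table and a set of 33 islet channel genes, of which 18 had a peak and 15 had none. The members and lists were chosen with earlier results of these data known. Promoter windows and gene lengths (RefSeq, GRCm38.p6) were matched by symbol, for 22 of 37 channel promoter peaks and 5026 of all 8050. Itpr1 and Clcn2 had no matching window. Python 3.11.15, pandas 2.3.3, numpy 2.4.6, scipy 1.17.1 and matplotlib 3.10.9 were used.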

Additional observations from a re-analysis of the deposited data

How the results depend on the processing

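Counts of called channel peaks moved most with the threshold. Between genotypes after PPx the count was 6, and it was 3 (Clcn3, Clcn6 and Kcnk12) with a Benjamini-Hochberg adjustment over all listed peaks, under which Itpr1 had an adjusted p of 0.0630, Trpc1 0.0653 and Clcn5 0.0548. It was 0 at an FDR under 0.01, 12 at an FDR under 0.10, and 1 (Kcnh5, lower) relative to the table's median. Over time in βKO islets the count was 4, and it was 0 at an FDR under 0.01, 17 at an FDR under 0.10 and 0 relative to the table's median. The median change between genotypes after PPx was 0.61 at promoters and 0.22 outside them, and before PPx it was -0.19 outside them. The median excess after PPx was -0.23 against the median of the whole table. Small medians changed sign: before PPx the median change was -0.05 over all channel peaks and 0.01 at promoters, and over time in βKO islets the median excess was -0.05 and was 0.03 without voltage-gated K channels. Without that class the median excess between genotypes after PPx was -0.03, and with 1 peak per gene it was -0.19, against -0.11. The count over time in βKO islets was 3 with the adjustment over all listed peaks, under which Clcn2 had an adjusted p of 0.0503. The interaction gave 0 calls under each of its 3 alternatives. The tests relative to the median and the excess without the CLC family or without voltage-gated K channels were chosen after seeing the data. The rule took the CLC family whole, and several of its members are chloride-proton exchangers rather than channels. Of the 6 calls between genotypes after PPx, 3 were at CLC genes (Clcn3, Clcn5 and Clcn6). Without the CLC family the median excess was -0.13 between genotypes after PPx, against -0.11, and -0.09 over time in βKO islets, against -0.05. No paired analysis was possible because the labels give the groups no shared replicate numbers and the tables hold no value per library. For the same reason no library could be left out, and the weight of any single mouse in these results is unknown.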
